A study of Arabidopsis thaliana with 6 samples.

Results

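In seedlings of Arabidopsis thaliana, transcripts were examined of 10 genes that encode proteins with a pollen Ole e 1 domain, some of them also rich in proline like the extensins. They were AT5G15780, AT3G16670, AT3G16660, AT2G34700, AGP31 (AT1G28290), AGP30 (AT2G33790), SAH7 (AT4G08685), AT1G78040, AT2G27385 and AT2G16630, found by their gene codes among the 32313 codes of the count table. The annotation text of 36 genes in all names Ole e 1, and all 10 are among them. This counts mentions of the name and not domains. The family was chosen by a measured value, the higher read count of AT5G15780 in the same comparison. There that gene was the only one called higher by the main edgeR test. The differences between the groups are therefore given as a description of the 10 genes, with no p-value. The call of AT5G15780 is named only as what chose the set.

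The study measured messenger RNA by RNA-seq in 2 groups of 3 libraries. One group was the Columbia wild type (WT). The other was BP12-2, in the same ecotype, which the labels call a knockdown line of TOR, the growth-regulating kinase that rapamycin targets. Plants named BP12 make FKBP12 of yeast, and this protein lets rapamycin bind plant TOR. The seedlings of both groups, 15 days after germination, spent 3 days on 0.5 MS with 10 µg/ml rapamycin, so every library comes from plants on the drug. BP12-2 is 1 line, the sources used here do not name the promoter of its transgene, and no library analysed here is a DMSO control. What the line does without rapamycin and what rapamycin does to it therefore cannot be told apart. The count columns carry 1 code for all BP12-2 libraries (L08) and another for all WT libraries (L07), whose meaning is not stated and which cannot be told apart from genotype. Nothing in the labels says whether the 3 libraries of a group were grown separately.

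Proteins with an Ole e 1 domain are secreted, and the family takes its name from the main allergen of olive pollen, although many members are made outside pollen. The domain holds conserved cysteines that form disulfide bonds, and in some members it follows a stretch rich in proline. In such stretches proline can be hydroxylated and decorated with sugars, which ties these proteins to the extensins and the arabinogalactan proteins of the cell wall. AGP31 is such a protein, known from vascular tissue, where it binds wall polysaccharides. AGP30 is its relative, known from roots and from seed germination.

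The coding sequences of the 10 genes differ widely in their proline content. Proline is encoded by the codons CCN, and the median coding gene of the count table (26614 genes) has 4.56% of them. AGP31 had 25.07% proline codons (90 of 359) and AT5G15780 had 24.44% (98 of 401), which placed them above 99.8% and 99.7% of coding genes. AGP30 had 14.64% and AT2G16630 had 13.93%. The other 6 genes lay between 1.75% in AT1G78040 and 7.43% in AT2G34700. AGP31 also stood out in histidine codons, with 15 of them (4.18%) against a median of 2.14% over coding genes. Cysteine codons numbered 5 to 11 in each of the 10 genes, with 6 in AT5G15780 and 7 in AGP31.

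The stretch of 30 codons with the most proline codons is printed here for the 4 proline-rich genes and, as a contrast, for AT1G78040. The sequences are RefSeq coding sequences of the TAIR10.1 build, read 5′ to 3′ in frame on the coding strand, with proline codons in capitals. AT5G15780 (chromosome 5, codons 334 to 363) holds 17 in this stretch, AGP31 (chromosome 1, codons 82 to 111) 15, AT2G16630 (chromosome 2, codons 147 to 176) 14, AGP30 (chromosome 2, codons 74 to 103) 13 and AT1G78040 (chromosome 1, codons 26 to 55) 2.
AT5G15780: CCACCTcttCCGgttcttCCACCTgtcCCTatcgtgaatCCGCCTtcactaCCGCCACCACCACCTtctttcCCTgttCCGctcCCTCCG
AGP31: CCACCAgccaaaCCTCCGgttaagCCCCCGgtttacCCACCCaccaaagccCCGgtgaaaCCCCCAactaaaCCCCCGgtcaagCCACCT
AGP30: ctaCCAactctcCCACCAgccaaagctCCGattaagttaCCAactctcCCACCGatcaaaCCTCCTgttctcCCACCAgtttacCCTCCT
AT2G16630: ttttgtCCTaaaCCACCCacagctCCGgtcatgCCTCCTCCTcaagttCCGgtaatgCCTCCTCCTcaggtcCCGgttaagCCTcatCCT
AT1G78040: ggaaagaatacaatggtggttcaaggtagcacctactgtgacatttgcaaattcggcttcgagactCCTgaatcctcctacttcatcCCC
In the stretches of AGP31 and AGP30 the proline codons stand mostly in pairs, in AT2G16630 singly, in a pair or in threes, and AT5G15780 has a run of 5 of them.

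**Figure D1:**
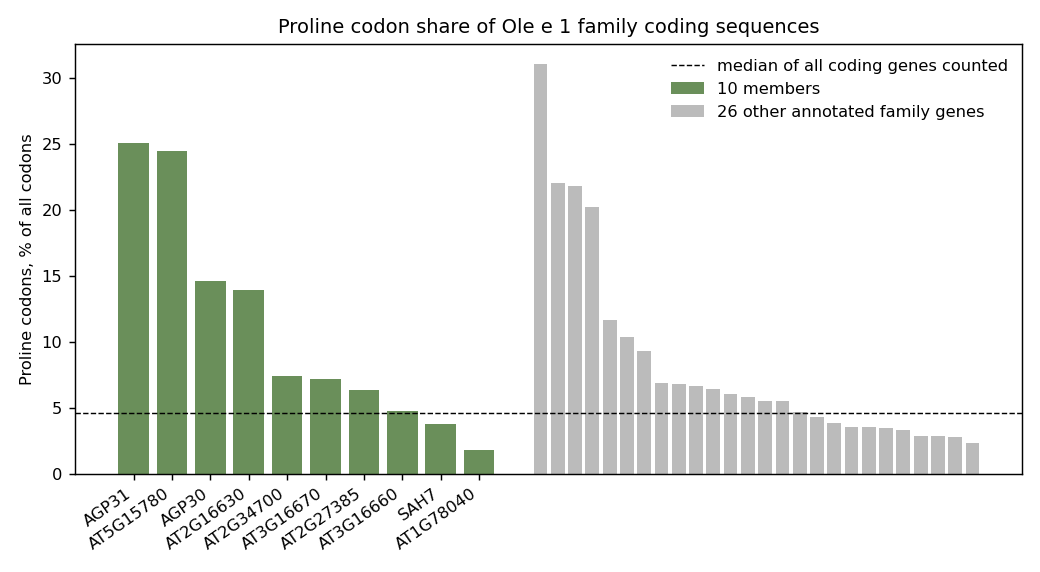
Proline codons as a percentage of all codons (y axis) for the 10 genes (green bars, named) and the 26 other annotated Ole e 1 family genes (grey bars, in falling order), with the median of all coding genes counted as a dashed line at 4.56%. AGP31 and AT5G15780 lead the 10 genes, AGP30 and AT2G16630 follow, and AT1G78040 is lowest at 1.75%.

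Of the 10 genes 9 were detected in all 6 libraries and passed the filter on low counts, with totals over the libraries from 1493 reads for AT2G16630 to 50338 for AGP31. AT2G34700 had 0 reads in every library. A count of 0 allows up to 3 reads, which corresponds to between 0.174 CPM in BP12-2 replicate 3 and 0.451 CPM in BP12-2 replicate 2 (CPM, read counts scaled to a common library size, with TMM factors). Markers of pollen were also near 0: the 8 of them summed to between 0.902 and 2.11 CPM per library, and VGD1, PPME1 and AGP23 had 0 reads in all 6.

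Levels of different genes were compared per kilobase of exon (RPKM). AGP31 was the most abundant, at 608 ± 81.6 RPKM in BP12-2 against 370 ± 84.5 RPKM in WT (mean ± SD of 3 libraries), and its lowest library lay above the highest library of any other of the 10 genes. AT1G78040 followed at 192 ± 13.5 in BP12-2 and 215 ± 8.25 in WT, and AT5G15780 at 214 ± 33.0 and 94.6 ± 7.26 RPKM. With all annotated exons as the length, the WT libraries of AT1G78040 and AT5G15780 did not overlap, whereas their BP12-2 libraries did. AT2G27385 had a mean over the 6 libraries of 75.3 RPKM, SAH7 50.7, AT3G16670 38.3, AT3G16660 28.6, AGP30 24.5 and AT2G16630 13.8. The ranges of neighbours in this order overlapped. The annotation holds transcripts of unequal length for AGP31 and AT1G78040. With the shortest transcript as the length, AGP31 was at 463 ± 106 RPKM and AT1G78040 at 519 ± 19.9 RPKM in WT. Their order in WT therefore depends on which transcript is counted. In BP12-2 AT1G78040 was then at 463 ± 32.5 RPKM, against 214 ± 33.0 for AT5G15780, which has 1 transcript. The overlap of these genes in BP12-2 thus depends on the length too.

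**Figure D2:**
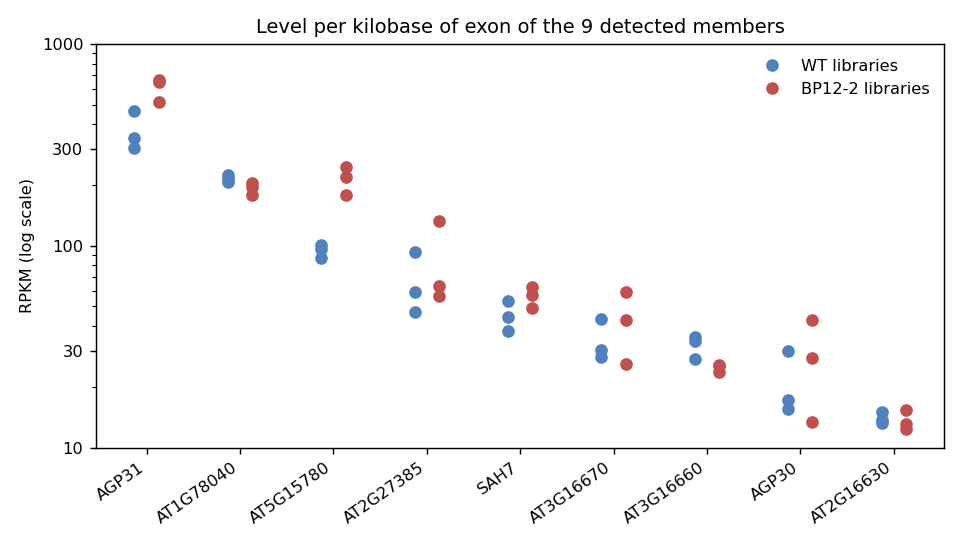
RPKM (y axis, log scale) of the 9 detected genes, ordered by their mean over all libraries, with each point 1 library (blue, 3 WT; red, 3 BP12-2). The length is that of all annotated exons. At this length AGP31 lies above the others in every library, and AT5G15780 lies below AT1G78040 in WT and beside it in BP12-2.

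AT5G15780, whose product is known only by its family, differed most between the groups. Its level was 356, 401 and 293 CPM in BP12-2 replicates 1 to 3 and 165, 142 and 158 CPM in WT replicates 1 to 3. The lowest BP12-2 library was well above the highest WT library. The means were 350 ± 54.0 and 155 ± 11.9 CPM (SD, n = 3), a 2.26-fold difference, with a log2 fold change of 1.18 ± 0.14 (SE). This is the 1 member called by the main edgeR test of the comparison. Of all 19436 genes tested 0.00515% were called higher, and nothing is read from the count because this call chose the set. The log2 fold change was 1.18 without BP12-2 replicate 1 and WT replicate 3 together, 1.18 between those 2 libraries, and 1.07 to 1.29 with each library left out in turn. With any 1 of the 6 libraries left out, the gene was no longer called. The gene lies on the minus strand of chromosome 5 at 5144629 to 5146458 (TAIR10.1), 22 bases from the end of PSRP3/2, and its exons overlap those of no other counted gene.

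AGP31, the proline- and histidine-rich arabinogalactan protein, was at 762, 980 and 962 CPM in BP12-2 and at 690, 505 and 451 CPM in WT. The groups did not overlap, but WT replicate 1 came close to BP12-2 replicate 1. The means were 902 ± 121 and 549 ± 125 CPM, a 1.64-fold difference, with a log2 fold change of 0.72 ± 0.18 (SE). AGP31 alone made up 43.9% to 52.0% of the summed CPM of the 10 genes in BP12-2 and 36.6% to 46.1% in WT. The share of AT5G15780 in that sum was 15.8% to 20.5% in BP12-2 and 11.0% to 12.8% in WT, while that of AT1G78040 was 19.2% to 20.0% and 27.5% to 33.5%. The sum itself was 1736 to 2025 CPM in BP12-2 and 1233 to 1495 in WT. This sum contains AGP31 and AT5G15780, the gene that chose the set, so nothing is read from it about the other members. The shares depend on it as well: the CPM of AT1G78040 was 365 ± 25.6 in BP12-2 and 409 ± 15.6 in WT. In whole seedlings, more cells of a type and more RNA per cell cannot be told apart.

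**Figure D3:**
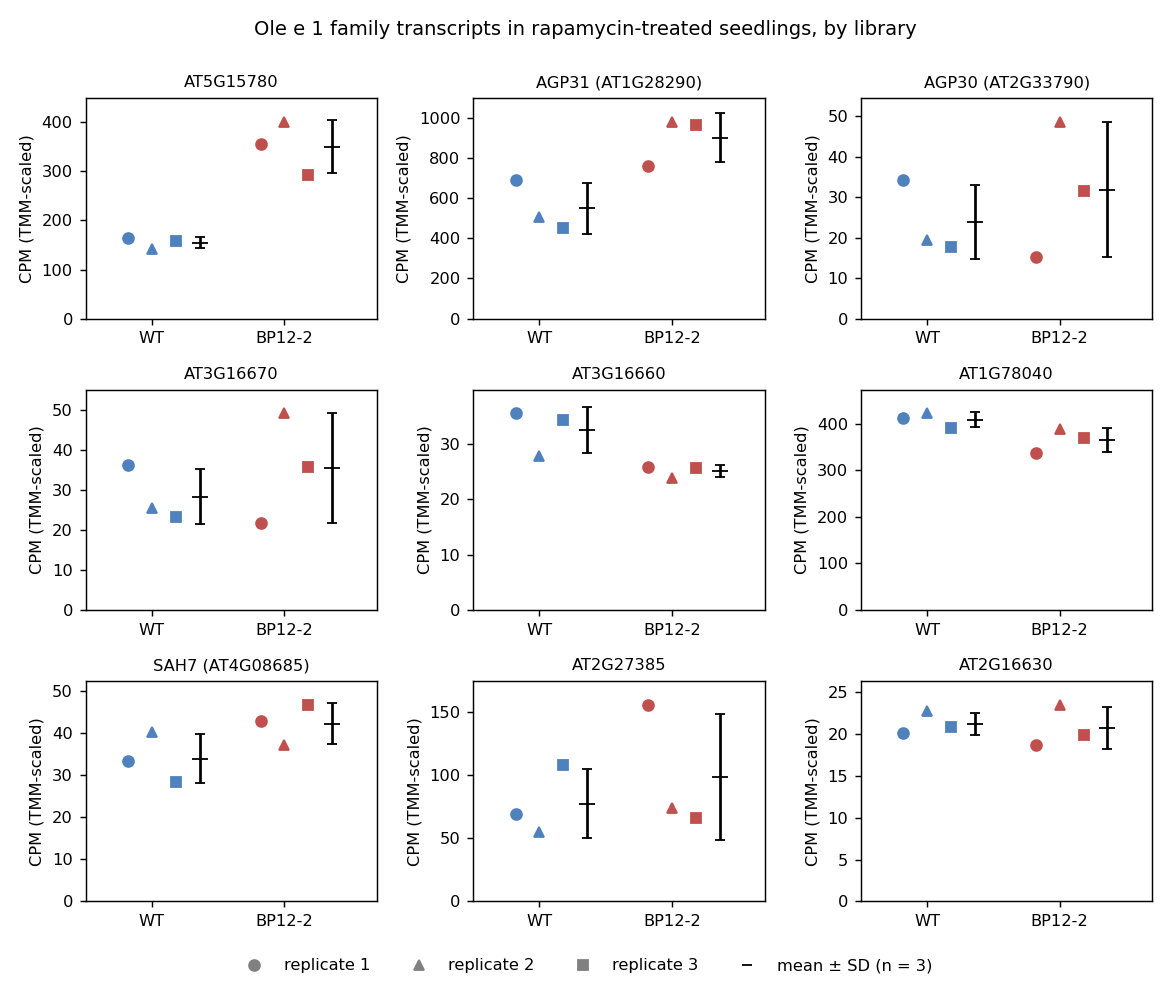
TMM-scaled CPM (y axis, from 0) of the 9 detected genes in WT (blue) and BP12-2 (red), with replicates 1 to 3 as circle, triangle and square and the mean ± SD in black. The groups are apart for AT5G15780 and AGP31 (BP12-2 higher) and for AT3G16660 and AT1G78040 (BP12-2 lower), and overlap for the other 5.

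Lower values in BP12-2 were seen in AT3G16660, at 25.8, 23.9 and 25.6 CPM against 35.5, 27.8 and 34.2 CPM in WT. The BP12-2 libraries lay close together and below all WT libraries, with WT replicate 2 nearest to them. The log2 fold change was -0.37 ± 0.12 (SE). AT1G78040, the abundant family member with the fewest proline codons, was at 337, 388 and 369 CPM in BP12-2 and 412, 423 and 392 CPM in WT, with a log2 fold change of -0.16 ± 0.10. Its groups were apart by a narrow margin, and its highest library was 1.25 times its lowest. In all, 2 of the 9 detected genes were higher and 2 lower in BP12-2 with no overlap between the groups. Among all genes tested, 12.1% were higher and 12.2% lower with no overlap, or 24.3% in either direction.

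SAH7, the family member closest to AT1G78040 in the annotation, was at 42.7, 37.0 and 46.7 CPM in BP12-2 and 33.2, 40.1 and 28.4 CPM in WT. The groups overlapped through WT replicate 2, and the log2 fold change was 0.32 ± 0.15 (SE). AT2G16630 was nearly level across the libraries, at 18.7, 23.5 and 19.9 CPM in BP12-2 and 20.1, 22.7 and 20.8 CPM in WT, with a log2 fold change of -0.05 ± 0.12. The last exon of SAH7 overlaps AT4G08690 (16.2 ± 0.979 CPM in BP12-2 and 16.6 ± 1.16 in WT), and that of AT2G16630 overlaps TOC132 (171 ± 11.0 and 182 ± 7.65 CPM). Because strand use in the counting is not stated, reads in these overlaps cannot be told apart.

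**Figure D4:**
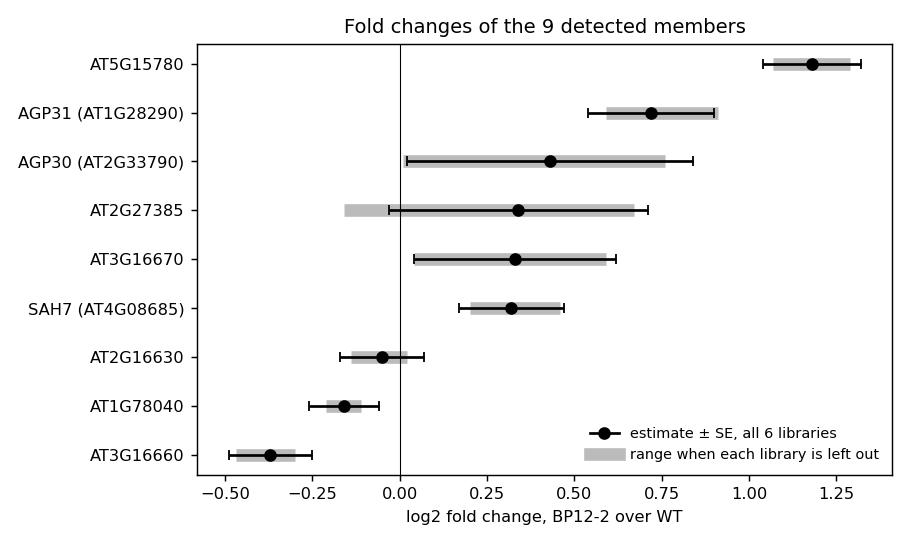
Log2 fold change of BP12-2 over WT (x axis) for the 9 detected genes, as the estimate ± SE from all 6 libraries (black) over the range found when each library is left out in turn (grey bar). AT5G15780 lies farthest from 0 at 1.18, and the grey bars of AT2G27385 and AT2G16630 cross 0.

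The remaining 3 genes varied more within a group than between the groups. AT2G27385 was at 156, 73.7 and 66.2 CPM in BP12-2 and at 69.3, 54.8 and 108 CPM in WT. BP12-2 replicate 1 and WT replicate 3 were the highest libraries of their groups. The SD within groups on the log2 scale was 0.59, against a median of 0.19 over all genes tested. The log2 fold change of 0.34 ± 0.37 (SE) became -0.16 without BP12-2 replicate 1, 0.67 without WT replicate 3 and 0.17 without both. The same 2 libraries differed from the other 4 in clock transcripts: the evening gene GI was at 149 CPM in BP12-2 replicate 1 and 158 in WT replicate 3 and at 62.3 to 74.8 CPM in the other 4. The summed level of the 5 evening genes was 285 and 313 CPM in this pair and 121 to 133 CPM in the other 4, and none was at 0. The part of clock state in the values of AT2G27385 was not tested.

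AGP30 was at 15.3, 48.6 and 31.6 CPM in BP12-2 and at 34.3, 19.5 and 17.6 CPM in WT. Its lowest library, BP12-2 replicate 1, and its highest, BP12-2 replicate 2, were both from BP12-2, and they differed 3.18-fold. AT3G16670 showed the same order of BP12-2 libraries, at 21.8, 49.3 and 35.7 CPM, and was at 36.2, 25.5 and 23.4 CPM in WT. Across the 6 libraries the centred log2 values of these 2 genes had a root mean square distance of 0.179, and among 14818 genes with a mean of at least 5 CPM AT3G16670 was the 4th nearest to AGP30. Their log2 fold changes were 0.43 ± 0.41 and 0.33 ± 0.29 (SE), and 0.01 and 0.04 without BP12-2 replicate 2. Without BP12-2 replicate 1 they were 0.76 and 0.59, without WT replicate 1 they were 0.76 and 0.53, and without WT replicate 3 they were 0.24 and 0.21. Between BP12-2 replicate 1 and WT replicate 3 alone they were -0.20 and -0.10. In the same libraries the 3 morning clock genes summed to 191 CPM in BP12-2 replicate 1 and 179 in WT replicate 3. They summed to 345 to 476 CPM in the other 4, with none at 0. CCA1 and LHY carried this, while PRR9 was at 43.3 and 49.2 CPM in the pair and 42.6 to 52.7 CPM in the other 4. In WT replicate 2, where AGP30 and AT3G16670 were at 19.5 and 25.5 CPM, the morning sum was 345 CPM. The 15 root hair and root markers summed to 606 to 718 CPM in BP12-2 and 384 to 557 in WT, with none at 0 in all libraries. The sum was highest in BP12-2 replicate 1, where PRP3 (275 CPM) and LRX1 (199 CPM) led it. SHR (35.6 CPM) and SCR (85.9 CPM) were lower there than in the other BP12-2 libraries. The median of the centred log2 values of the list was 0.21, 0.20 and 0.19 in BP12-2 replicates 1 to 3. In WT replicates 1 to 3 it was 0.12, -0.44 and -0.31. The part of root content and of clock state in these values was not tested.

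**Figure D5:**
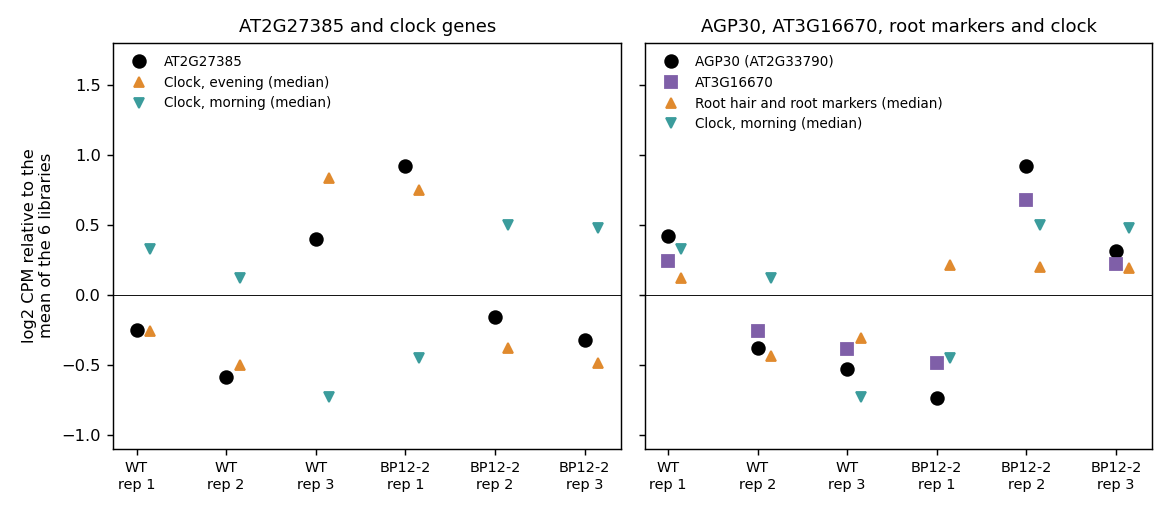
Log2 CPM relative to the mean of the 6 libraries (y axis) in each library (x axis), with AT2G27385 and the medians of the evening and morning clock lists on the left, and AGP30, AT3G16670 and the medians of the root marker and morning clock lists on the right. AT2G27385 is high in WT replicate 3 (0.40) and BP12-2 replicate 1 (0.92), as is the evening list (0.83 and 0.75). AGP30 is low in the same libraries (-0.53 and -0.74) and also in WT replicate 2 (-0.38).

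AT3G16660 and AT3G16670 lie next to each other on the plus strand of chromosome 3, at 5676749 to 5678099 and 5681380 to 5682362 (TAIR10.1), 3280 bases apart, and the annotation names each as the best match of the other. Even so, their libraries did not follow each other. AT3G16660 spanned 23.9 to 35.5 CPM and was lower in BP12-2, while AT3G16670 spanned 21.8 to 49.3 CPM and overlapped between the groups. Their centred values had a root mean square distance of 0.520, and AT3G16670 ranked 13899 of 14818 genes by nearness to AT3G16660. No 50-base word of either transcript occurs in another counted gene.

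The rest of the Ole e 1 family was counted in the same way. Of 25 other family genes in the count table, 18 passed the filter, and 0 passed the edgeR quasi-likelihood test in either direction, where 0.0669% of all genes tested did. At an unadjusted p under 0.05 there were 6, all higher in BP12-2, against 18.2% of all genes. By DESeq2 1 was called (PRP3), against 3.28% of genes with an adjusted p, and by limma voom 0. With a term in the edgeR fit for BP12-2 replicate 1 and WT replicate 3, 1 other gene was called (AT5G13140, higher), against 5.1% of all genes. That term rests on values of these same data, because no label sets the 2 libraries apart. The median log2 fold change was 0.42, with 17 positive and 1 negative, beside a median of 0.005 and 50.8% positive over all genes tested. The 2 most abundant were PRP4, with 781 ± 115 CPM in BP12-2 against 811 ± 121 CPM in WT, and PRP3, a proline-rich protein of root hairs, at 212 ± 54.6 and 120 ± 34.3 CPM (SD, n = 3; edgeR adjusted p = 0.886 and 0.146). PRP3 also belongs to the root markers, which had a median of 0.32 with 13 of 14 tested positive. The edgeR test and limma voom called 0 of these root markers, and DESeq2 called 2 (EXPA7 and PRP3, higher). At an unadjusted edgeR p under 0.05 there were 6, all higher. Photosynthetic shoot markers had a median of 0.35 (4 of 4 positive, none at 0). Their summed level was 28982 to 33557 CPM in BP12-2 and 23882 to 26469 CPM in WT, with no overlap. CAB1 was the largest part of that sum, and only 1 of the 4 markers (PSAF) had no overlap on its own. Among all genes tested, 12.1% were higher in BP12-2 with no overlap, and 24.3% had no overlap in either direction. The edgeR test called 0 of these 4, DESeq2 called 1 (PSAF, higher) and limma voom 0, with 1 at an unadjusted edgeR p under 0.05. The part of root and of shoot content in the family's values was not tested. Guard cell markers, also expressed in seedlings, had a median of -0.26 (7 of 8 negative, summed 148 to 158 CPM in BP12-2 and 158 to 174 in WT), and vascular markers, the tissue of AGP31, a median of 0.32 (7 of 8 positive, 443 to 535 and 385 to 448 CPM), with no marker of these 2 lists at 0 in all libraries. The edgeR test, DESeq2 and limma voom called 0 in either list. At an unadjusted edgeR p under 0.05 there were 2 guard cell markers, both lower, and 3 vascular markers, all higher. The part of guard cell and of vascular content in the values was not tested.

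Lists of proline-rich wall proteins and of enzymes that modify hydroxyproline were counted beside the family. PRP1, PRP2, PRP3 and PRP4 belong to the family and also to the proline-rich and extensin list, so they are counted in both. Over all genes tested, 0.0669% passed the edgeR test and 18.2% had an unadjusted p under 0.05. With the term for the 2 libraries 5.1% were called, and DESeq2 called 3.28% of genes with an adjusted p. The median log2 fold change of all genes tested was 0.005. Of 17 proline-rich and extensin genes 0 passed the edgeR test, with 7 at an unadjusted p under 0.05, all higher, 3 higher by DESeq2 (PRP3, EXT6 and EXT10) and 0 by limma voom. With the term for the 2 libraries EXT6 and EXT10 were called. EXT6, an extensin, was at 480 ± 96.8 CPM in BP12-2 against 182 ± 66.0 CPM in WT (edgeR adjusted p = 0.0798). The median log2 fold change of the 17 genes was 0.27. The 2 most abundant were EXT3, the extensin needed for cell plate and wall assembly, with 3884 ± 680 CPM in BP12-2 against 2958 ± 65.6 CPM in WT, and PRP4 (edgeR adjusted p = 0.238 for EXT3). Of 29 arabinogalactan protein genes 0 passed, with 5 higher and 5 lower at an unadjusted p under 0.05, 1 higher and 4 lower by DESeq2, 0 by limma voom and a median of 0.07. With the term for the 2 libraries 4 were called, all lower (FLA9, AGP5, AGP15 and FLA13). AGP9 was at 397 ± 66.4 and 294 ± 20.3 CPM, and AGP15 at 238 ± 32.1 and 362 ± 48.7 CPM (SD, n = 3; edgeR adjusted p = 0.174 and 0.107). Of 10 hydroxyproline-modifying enzymes tested 0 passed, with 1 higher at an unadjusted p under 0.05, 0 by DESeq2 and by limma voom, and a median of 0.15. RRA3, an arabinosyltransferase of extensins, was at 76.2 ± 2.71 and 77.8 ± 6.43 CPM, and FUT4, a fucosyltransferase of arabinogalactan proteins, at 24.0 ± 5.33 and 24.4 ± 3.28 CPM (edgeR adjusted p = 0.900 and 0.974).

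The genes whose libraries most resembled those of AT5G15780 came from other families. Among 14818 genes the nearest by root mean square distance of centred log2 CPM over the 6 libraries was AT2G37900, a major facilitator superfamily gene, at 0.155. It was followed by SNG1, an enzyme of sinapate ester synthesis, at 0.163, GH3.3, an auxin-conjugating enzyme gene, at 0.187, PPL1, a PsbP-like protein, at 0.193, and AT3G53980, of the lipid-transfer superfamily, at 0.194. AT3G53980 was at 260, 225 and 201 CPM in BP12-2 and 127, 82.3 and 85.9 CPM in WT. Its 3 BP12-2 libraries lay above the 3 WT libraries, as those of AT5G15780 did. Because these genes were picked for nearness to AT5G15780 over the same libraries, nothing is read from that likeness. The nearest of the 9 detected Ole e 1 genes was AGP31, at a distance of 0.325.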

How the data were processed

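The authors deposited whole-number counts of reads per gene, not normalized, for 6 libraries (6706610 to 17092773 per library). The low genes are less precise in the smaller libraries, and limits for a count of 0 cover counting error only. Per the submitters' processing notes, reads were aligned to TAIR9 with Bowtie, counted with HTSeq and compared with edgeR. The sources used here give neither versions nor the strand setting.

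Names, coding sequences and exon lengths (for RPKM) came from RefSeq TAIR10.1, which held 31786 of 32313 codes. No coordinate was converted.

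Genes were kept by filterByExpr (count minimum 10, total minimum 15), scaled by TMM (factors 0.972 to 1.021) and tested with the 2-sided edgeR quasi-likelihood F test (edgeR 4.0.16, R 4.3.3). Genotype was the only term, and p-values were adjusted by Benjamini-Hochberg over 19436 genes with a threshold of 0.05. Centred log2 CPM used a prior count of 2. The tests were tried on simulated data. The smallest chi-square per degree of freedom between libraries was 10.9, so none was a repeat. All p-values rest on the spread among 3 libraries a group, which may be technical.

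Members and lists were chosen with earlier results of these data known. By symbol, 18 of 24 proline-rich and extensin entries (17 genes), 30 of 30 arabinogalactan protein entries (29 genes) and 11 of 23 hydroxyproline entries matched. All members, the 2 most abundant genes of each family or wall list and the 5 genes nearest to AT5G15780 were named. Other named genes were chosen after their values were seen. Alternatives were RLE factors, library totals, no filter, DESeq2 1.42.0, limma 3.58.1 (voom), a replicate block, a term for BP12-2 replicate 1 and WT replicate 3, each library left out, and longest transcripts. Leaving those 2 libraries out, comparing them alone, and shortest transcripts were added after seeing the data. No label sets those 2 libraries apart, so the term for them also rests on values of these same data.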

Additional observations from a re-analysis of the deposited data

How the results depend on the processing

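With the edgeR test 13 genes passed. The count was 17 with library totals, 22 with limma voom, 56 without the filter (16 higher, 40 lower), 624 by DESeq2, 992 with the term for BP12-2 replicate 1 and WT replicate 3, 38 without those 2 libraries, and 0 (without BP12-2 replicate 3) to 56 (without WT replicate 1) with each library left out in turn. It was 1 without BP12-2 replicate 2 or WT replicate 2 and 2 without WT replicate 3. A replicate block gave 0 genes. The labels do not say whether the replicate numbers pair the libraries. Same-numbered deviations from the group means correlated at -0.31, 0.057 and -0.303, while BP12-2 replicate 1 and WT replicate 3 correlated at 0.473. Deviations within a group sum to 0, so these correlations depend on each other and cannot decide whether libraries were paired. The cause of the shifts in the number of genes passing was not tested.

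AT5G15780 kept its direction in all 15 alternatives (1.07 to 1.29 on the log2 scale). The call that chose the set was also made in 6 alternatives, and not with the block, without any 1 library, or without BP12-2 replicate 1 and WT replicate 3 (fewer samples). AGP31 ranged from 0.59 to 0.91. AT3G16660, AT1G78040 and SAH7 kept their sign in all 15. AT2G27385 (-0.16 to 0.67), AGP30 (-0.20 to 0.76) and AT3G16670 (-0.10 to 0.59) changed sign in 1 alternative each, and AT2G16630 (-0.16 to 0.02) in more than 1. The order by RPKM was the same with longest transcripts.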

Other observations

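AT5G22430, which the annotation names as the family gene closest to AT2G27385, did not pass the filter on low counts. Its CPM was 2.30, 0 and 0.757 in the BP12-2 libraries and 0.129, 0.595 and 12.8 in the WT libraries, each in replicate order. It was highest in BP12-2 replicate 1 and WT replicate 3 of their groups, as was AT2G27385.

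Genes that flank the 10 Ole e 1 genes, without the members themselves, numbered 18, and 8 passed the filter. None was called by edgeR, DESeq2 or limma voom (0 genes each), where edgeR called 0.0669% of all genes tested and DESeq2 3.28%. An unadjusted edgeR p under 0.05 was found in 0 of them, against 18.2% of all genes tested. Their log2 fold changes ran from -0.16 to 0.32 with a median of 0.06. PSRP3/2, whose product is a plastid ribosomal protein and which lies 22 bases from AT5G15780, was at 4.01 ± 0.974 CPM in BP12-2 against 3.38 ± 0.945 CPM in WT (SD, n = 3), far below AT5G15780 itself.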
